A study of Mus musculus with 12 samples.

Results

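Axon guidance genes encode the cues that growing axons and migrating neurons read on their way, and the receptors that read them. Their RNA was measured here in the developing cerebellum of Ts1Cje mice and euploid controls. The genes were chosen by symbol, as Eph receptors, ephrins, semaphorins of class 3 to class 7, plexins, neuropilins, netrins, Dcc, Unc5 receptors, Slits and Robo receptors. They took in 58 probe sets of 45 genes, out of 12488 probe sets on the array and 8252 genes with a symbol of their own. The choice used no measured value. By family, there were 5 ephrin-A and 3 ephrin-B ligands, 7 EphA and 2 EphB receptors, 5 class 3 and 11 other semaphorins, 1 neuropilin, 5 plexins, 3 genes of netrin and its receptors, and 2 Robo receptors. The search for names that begin with Unc5 also caught Unc50, which is no guidance receptor and is described apart, so 44 guidance genes on 57 probe sets remain. No Slit gene matched the search, and Slits are not analysed here.

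The samples were 6 RNA pools of cerebellum, each hybridised to 2 arrays. A pool stood for 1 genotype at 1 stage: the day of birth (P0), postnatal day 15 (P15) or postnatal day 30 (P30). Ts1Cje mice carry a segmental trisomy of chromosome 16 and model Down syndrome, whereas euploid mice carry the usual chromosome number. Every pool held RNA of 3 cerebella except the euploid P30 pool, which held 2. The sources used here do not give strain or sex of the animals. Signals are linear MAS5 intensities, and log2 differences were taken on log2(signal + 4.6), so that fold changes of dim probe sets come out too small. A call means an adjusted p under 0.05 over 7453 probe sets with a mean signal of at least 20.12.

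In the embryo and after birth, ephrins signal through Eph receptor tyrosine kinases at contacts between cells, and semaphorins signal through plexins, alone or with a neuropilin as co-receptor. Netrin attracts axons through Dcc and repels them through Unc5 receptors, and Slits repel through Robo receptors. In the cerebellum these families are known from the migration of granule cells and the sorting of incoming axons. Transmembrane Sema6a and its receptor Plxna2 guide granule cells inward, and Unc5c is the gene mutated in the rostral cerebellar malformation mouse.

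Arrays of the same pool correlated with a median r of 0.972 (6 pairs), arrays of the other genotype at the same stage with 0.967 (12 pairs), and arrays of different stages with 0.864 (48 pairs). Median signal per array was 30.4 to 36.2. Actin probes at the 3' end against those at the 5' end, a sign of RNA integrity, gave a ratio of 1.55 and 1.67 in the Ts1Cje P30 pool and at most 1.43 in the others. Xist, made from the inactive X chromosome of females, had signals of 105.6 and 77.6 in the Ts1Cje P15 pool and 1.4 to 6.7 on the other 10 arrays. Markers of granule cells (4 of 4 tested genes) and Purkinje cells (5 of 5) rose from P0 to P15. The 2 markers of tissue outside the cerebellum on the array, Neurod6 and Hoxb3, lay below the signal filter. Their signals summed to 39.7 to 42.9 in the euploid P0 pool and 21.4 to 22.0 in the Ts1Cje P0 pool. The sums were 14.2 to 21.0 at P15 and 11.8 to 22.2 at P30. The part of such tissue in the differences below was not tested.

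Of the 58 probe sets, 38 passed the signal filter and stand for 32 genes. These counts include Unc50, and without it they are 37 probe sets of 31 genes. Passing depended on the mean over all arrays, so a gene high at a single stage could pass through that stage. The tested probe set nearest above the filter had a mean of 23.0 (Sema6a), and the nearest one below had 18.1 (a further probe set of Sema4b). At least 1 stage mean lay under the filter for 5 tested probe sets, those of Epha4, Epha5, Robo1 and Sema6a and a further one of Nrp1. Epha5 and Robo1 lay under it at both P15 and P30, so they passed through P0 alone. The RefSeq gene table (GRCm38.p6) held all 45 genes. It places 5 of them on chromosome 16 (Epha3, Epha6, Ephb3, Robo1 and Sema5b), all on the proximal side of Sod1, and so outside the distal part that is trisomic in Ts1Cje.

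Epha5, Nrp1, Plxna2 and Unc5c moved most within their roles, and the 250 bases upstream of their annotated starts are shown because the receptors that fell and those that rose can then be set side by side. They are RefSeq sequences of GRCm38.p6, written 5' to 3' on the strand of the gene, with each GC box (GGGCGG) on that strand in capitals. Epha5 lies on the minus strand (chr5:84417383-84417632), Nrp1 on the plus strand (chr8:128358823-128359072), Plxna2 on the plus strand (chr1:194619579-194619828) and Unc5c on the plus strand (chr3:141465314-141465563).
Epha5: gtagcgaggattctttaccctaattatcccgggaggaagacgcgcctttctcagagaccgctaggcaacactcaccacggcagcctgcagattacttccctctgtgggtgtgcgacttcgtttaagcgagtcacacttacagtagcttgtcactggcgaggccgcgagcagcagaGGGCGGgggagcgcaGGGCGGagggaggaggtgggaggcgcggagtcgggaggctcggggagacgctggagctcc
Nrp1: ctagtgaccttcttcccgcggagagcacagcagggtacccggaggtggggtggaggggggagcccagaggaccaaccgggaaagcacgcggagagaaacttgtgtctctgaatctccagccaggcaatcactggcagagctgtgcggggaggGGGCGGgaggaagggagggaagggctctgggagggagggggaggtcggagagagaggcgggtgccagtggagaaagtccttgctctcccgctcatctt
Plxna2: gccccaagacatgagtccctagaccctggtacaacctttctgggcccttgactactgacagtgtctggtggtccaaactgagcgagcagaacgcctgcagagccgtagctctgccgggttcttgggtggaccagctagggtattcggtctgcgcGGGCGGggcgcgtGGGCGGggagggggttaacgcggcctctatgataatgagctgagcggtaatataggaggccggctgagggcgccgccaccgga
Unc5c: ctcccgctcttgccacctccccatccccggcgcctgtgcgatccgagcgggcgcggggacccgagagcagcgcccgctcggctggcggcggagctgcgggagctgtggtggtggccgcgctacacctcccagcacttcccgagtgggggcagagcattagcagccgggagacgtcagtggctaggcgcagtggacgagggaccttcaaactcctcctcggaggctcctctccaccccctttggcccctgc
The windows of Epha5 and Plxna2 each held 2 GC boxes, that of Nrp1 held 1, and that of Unc5c held 0 on either strand although 71.2% of its bases were G or C. The GC box was thus found upstream of a receptor gene that fell and of one that rose. Over all 51 annotated windows of 38 of the 45 genes, that of Unc50 included, 74.5% held a GC box on either strand, against 52.8% of 8413 windows of genes on the array and 32.7% of 32851 windows in the table. The letters TATAAA were in 1.96% of these 51 windows and 8.94% of those of genes on the array. An E-box (CANNTG) was in 41.2% against 59.1%, and CCAAT in 27.5% against 34.6%, both strands searched. Median GC content was 64.0% in the 51 windows and 58.8% in those of genes on the array, and no match was taken as a binding site. Motifs were counted one by one, whether or not they overlapped another.

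The first comparison was that of P0 with P15, over both genotypes. The receptors Epha5, Nrp1, Robo1 and Epha7 each fell about 4-fold, and the ligand Efnb3 fell 2.63-fold. In the other direction, the netrin receptor Unc5c rose 2.58-fold, and the semaphorin receptor Plxna2 rose 2.07-fold. In all, 17 of the 38 tested probe sets were called (44.7%), against 28.0% of all probe sets tested. The called ones were 12 lower (31.6%, background 14.4%) and 5 higher (13.2%, background 13.6%). By the brightest probe set of each gene, 8 of 32 genes fell, 5 rose and 19 were not called. The median difference was -0.31 over the 38 probe sets and -0.03 over all probe sets tested. These counts cover only genes bright enough to be tested, and among the falls Epha5 and Robo1 passed the filter through P0 alone. In whole tissue, fewer cells of a type and less RNA per cell cannot be told apart. Markers of dividing cells summed to 345.3 to 545.6 at P0 and 222.7 to 306.8 at P15, with 2 of 3 tested called lower and Top2a below the filter. Of astrocyte and Bergmann glia markers 4 of 5 rose, and 0 of 5 microglia and 0 of 6 meninges and choroid plexus markers were called. The part of these cell types in the changes of the guidance genes was not tested.

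**Figure D1:**
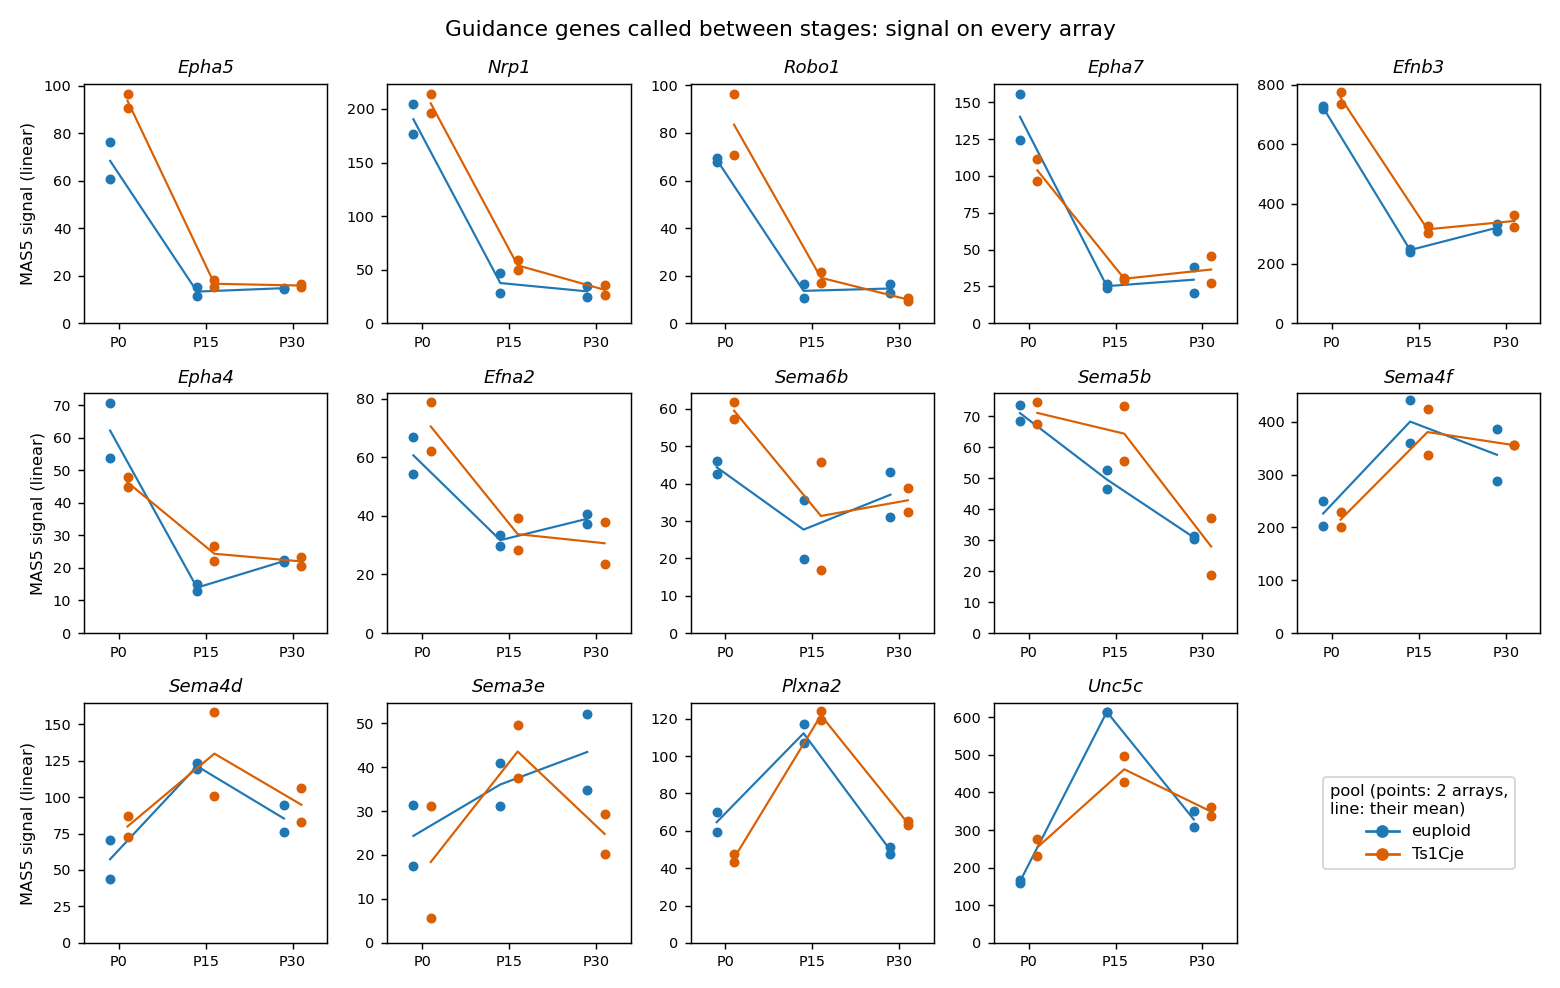
MAS5 signal (linear axis from 0) of the 14 guidance genes called between stages, by stage on the horizontal axis. Points are the 2 arrays of a pool, lines join the pool means, and blue is euploid and orange Ts1Cje. Epha5, Nrp1, Robo1, Epha7 and Efnb3 are high at P0 alone, and Plxna2 and Unc5c peak at P15.

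Among ligands, Efnb3, a transmembrane ephrin-B known as a midline barrier for spinal axons, read 717.9 and 727.1 in the euploid P0 pool and 735.5 and 776.7 in the Ts1Cje P0 pool. At P15 it read 240.2 and 250.4 in euploid and 303.5 and 326.2 in Ts1Cje, and at P30 309.7 to 362.7 over both. All 4 arrays at P0 lay above all 8 later ones, and the fall from P0 to P15 was -1.40 ± 0.15 on the log2 scale (SE, 6 pools; adjusted p = 0.000299). Its other probe set fell by less, from 156.4 to 183.8 at P0 to 69.8 to 121.6 at P15 (-0.86 ± 0.21, adjusted p = 0.0154).

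Efna2, a ligand anchored to the membrane by a lipid, read 54.4 and 66.9 in euploid and 62.0 and 79.0 in Ts1Cje at P0. It read 33.6 and 29.8 against 28.3 and 39.2 at P15, and 37.3 and 40.7 against 37.9 and 23.4 at P30. Both stages stood apart, with a fall of -0.91 ± 0.21 (adjusted p = 0.013). That call ended without the euploid P15 pool (adjusted p = 0.0518), without the Ts1Cje P0 pool (adjusted p = 0.0945) or with the second hybridisations alone (adjusted p = 0.0521). Efna3 (-0.16 ± 0.17), Efnb1 (-0.18 ± 0.26) and Efnb2 (-0.19 ± 0.19) were not called. Their arrays at P0 and P15 overlapped.

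Of the 5 tested EphA receptors, 3 fell (60.0%, against 14.4% of all probe sets tested). Among them, Epha5 passed the signal filter through P0 alone, and the P15 mean of Epha4 lay under it. The filter itself can thus favour falls in this share. Epha5, a receptor for ephrin-A ligands, read 76.2 and 60.5 in euploid and 90.7 and 96.6 in Ts1Cje at P0. On the 8 later arrays it lay between 11.5 and 18.1, so the fall of -2.12 ± 0.22 (adjusted p = 0.000299) ended near the dimmest signals that were tested. Epha7, which binds the same ligands, read 124.5 and 155.9 in euploid and 111.2 and 96.3 in Ts1Cje at P0, against 24.0 to 30.8 at P15 and 20.7 to 45.8 at P30. Its P0 arrays all lay above the later ones (-1.96 ± 0.22, adjusted p = 0.000477).

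Epha4, a receptor for ephrins of both classes, read 53.7 and 70.7 in euploid and 44.8 and 47.8 in Ts1Cje at P0. At P15 it read 15.1 and 12.8 against 22.1 and 26.6, and at P30 20.5 to 23.5 over both genotypes. The stages did not overlap (-1.33 ± 0.28, adjusted p = 0.0081). The size rested in part on the euploid pools: the difference was -0.98 without the euploid P0 pool (adjusted p = 0.0761) and -0.91 without the euploid P15 pool (adjusted p = 0.0505). Epha8 (0.12 ± 0.16, adjusted p = 0.614) and Epha3 (0.03 ± 0.25, adjusted p = 0.942) were not called. Signals of Epha3 lay between 17.9 and 33.3 on all 12 arrays.

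Ephb6, an Eph receptor without kinase activity, had probe sets that disagreed. The brighter one gave -0.31 ± 0.20 (adjusted p = 0.274), whereas the dimmer one fell from 98.6 to 117.3 at P0 to 32.9 to 53.5 at P15, a 2.42-fold fall (adjusted p = 0.00338). By the rule of the brightest probe set the gene is counted as not called, and the difference between its probe sets was not tested.

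The neuropilin Nrp1, the co-receptor through which Sema3a repels axons and which also binds vascular endothelial growth factor, read 176.3 and 204.6 in euploid and 196.3 and 214.2 in Ts1Cje at P0. At P15 it read 46.4 and 28.6 against 49.4 and 58.6, and at P30 24.8 and 34.6 against 26.5 and 35.8. All P0 arrays lay above all later ones, with -2.24 in euploid and -1.84 in Ts1Cje from P0 to P15, and the difference over both was -2.04 ± 0.19 (adjusted p = 0.000155). A second probe set of Nrp1 fell by 2.24 ± 0.29 (adjusted p = 0.000892), with the genotypes in the other order, -1.69 in euploid and -2.79 in Ts1Cje. Endothelial markers, which share the tissue with neurons, summed to 197.3 to 309.9 at P0 and 197.3 to 273.8 at P15. Of these, 2 of 5 tested fell (Cdh5 and Vwf), and 14.4% of all probe sets tested fell. Flt1 (0.79 ± 0.34), Kdr (0.41 ± 0.24) and Pecam1 (0.15 ± 0.23) had differences above zero without a call. Their part in the fall of Nrp1 was not tested.

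Plexins are the signalling receptors of semaphorins, and 1 of the 5 genes was called (20.0%, against 28.0% of all probe sets tested). Plxna2, the receptor of Sema6a in granule cells, read 59.4 and 69.8 in euploid and 47.4 and 43.3 in Ts1Cje at P0. It read 117.3 and 107.1 against 124.2 and 119.3 at P15. Every P15 array lay above every P0 array (1.05 ± 0.22, adjusted p = 0.00827). Without the Ts1Cje P0 pool the rise was 0.70 and was not called (adjusted p = 0.0581). Plxna1 was lower on every P15 array than on any P0 array without a call (-0.50 ± 0.18, adjusted p = 0.0681), and Plxnd1, the receptor of Sema3e, was higher in the same way (0.40 ± 0.18, adjusted p = 0.133). Plxna3 gave -0.32 ± 0.19. Plxnb2, which granule cell progenitors need for their normal migration, gave 0.27 ± 0.16 and 0.18 ± 0.21 on its 2 probe sets, with overlapping arrays.

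Class 3 semaphorins are secreted, and Sema3e alone of 5 was bright enough to test. It read 17.4 and 31.3 in euploid and 5.6 and 31.2 in Ts1Cje at P0, and 40.9 and 31.2 against 49.6 and 37.5 at P15. The stages overlapped, and the call of a rise (0.92 ± 0.27, adjusted p = 0.0361) was lost in 6 of 14 other settings. It was 0.12 with the second hybridisations alone (adjusted p = 0.833), and it ended without the euploid P0 pool (adjusted p = 0.0627), the Ts1Cje P0 pool (adjusted p = 0.165) or the Ts1Cje P15 pool (adjusted p = 0.313).

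Semaphorins of classes 4 to 7 are held in the membrane, and of the 10 genes tested 2 rose and 1 fell. Over all probe sets tested, 13.6% rose and 14.4% fell from P0 to P15. Sema4f read 202.6 and 250.5 in euploid and 200.4 and 229.4 in Ts1Cje at P0, and 359.5 and 441.9 against 337.9 and 423.6 at P15. Its groups were apart in both genotypes, with 0.81 in each (0.81 ± 0.14 over both, adjusted p = 0.00378). Sema4d, a ligand of plexin-B1 that oligodendrocytes also make, read 70.7 and 44.1 against 72.9 and 86.8 at P0 and 123.3 and 119.0 against 158.6 and 100.9 at P15. The stages did not overlap (0.85 ± 0.18, adjusted p = 0.00797). Without the euploid P0 pool the value was 0.66 (adjusted p = 0.0548), and with the second hybridisations alone 0.78 (adjusted p = 0.102). Summed signals of 5 oligodendrocyte markers went from 93.9 to 147.4 at P0 to 5019 to 5490 at P15, with 4 of 4 tested called higher, and their part in these rises was not tested.

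Sema6b, a ligand of plexin-A receptors, read 42.6 and 46.2 in euploid and 57.2 and 61.9 in Ts1Cje at P0, and 35.6 and 19.8 against 45.9 and 16.8 at P15. The hybridisations of each P15 pool lay far apart, and the stages overlapped. The call (-0.80 ± 0.21, adjusted p = 0.021) ended with the first hybridisations alone (-0.26, adjusted p = 0.475). It also ended without the euploid P15 pool (adjusted p = 0.0506), the Ts1Cje P0 pool (adjusted p = 0.145) or the Ts1Cje P15 pool (adjusted p = 0.0783). Sema4b gave readings that differed by probe set: the brighter one was not called (-0.15 ± 0.22, adjusted p = 0.642), and a dimmer one, of a kind that can match several genes of a family, fell by 1.13 ± 0.19 (adjusted p = 0.00333).

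The other semaphorins of these classes were not called between P0 and P15. Sema4a gave -0.64 ± 0.24 (adjusted p = 0.084), with -1.18 in euploid and -0.09 in Ts1Cje. Sema6c gave -0.64 ± 0.27 (adjusted p = 0.108), and Sema7a, which is anchored by a lipid and acts through integrins, gave 0.64 ± 0.23 (adjusted p = 0.0743). Sema5b, Sema6a and Sema6d lay between -0.46 and -0.27.

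Unc5c, the repellent netrin receptor, read 166.5 and 159.7 in the euploid P0 pool and 614.2 and 614.0 in the euploid P15 pool. In Ts1Cje it read 275.7 and 231.8 at P0 and 426.7 and 496.3 at P15. All P15 arrays lay above all P0 arrays in both genotypes (1.37 ± 0.23, adjusted p = 0.0027), with 1.88 in euploid and 0.85 in Ts1Cje. Granule cell markers summed to 437.5 to 581.2 at P0. At P15 they summed to 4786 to 5155 in euploid and 3684 to 3922 in Ts1Cje, so their sums had the same order of genotypes at P15 as Unc5c did. Purkinje cell markers summed to 582.3 to 614.5 in euploid and 739.3 to 843.0 in Ts1Cje at P0. At P15 they summed to 7676 to 7678 in euploid and 5778 to 6272 in Ts1Cje, the genotype order of Unc5c at both stages. The part of either cell type in the Unc5c values was not tested. Netrin itself, Ntn1, gave -0.32 ± 0.21 (adjusted p = 0.301), from 103.9 to 199.8 at P0 to 95.4 to 136.5 at P15. Dcc, the attractive netrin receptor, read 1.4 to 5.6 on all 12 arrays and was not tested.

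Robo1, a receptor of Slits, read 68.0 and 69.6 in euploid and 70.6 and 96.4 in Ts1Cje at P0, against 16.4 and 10.8 and 21.5 and 16.7 at P15. At P30 it read 16.5 and 12.7 against 9.2 and 10.7. Its P0 arrays stood above all later arrays, with -2.03 in euploid, -1.89 in Ts1Cje and -1.96 ± 0.26 over both (adjusted p = 0.001). The calls of Epha5, Nrp1, Robo1, Epha7, Efnb3, Sema4f and Unc5c were kept in every setting run, 14 for Robo1 and 15 for the others.

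**Figure D2:**
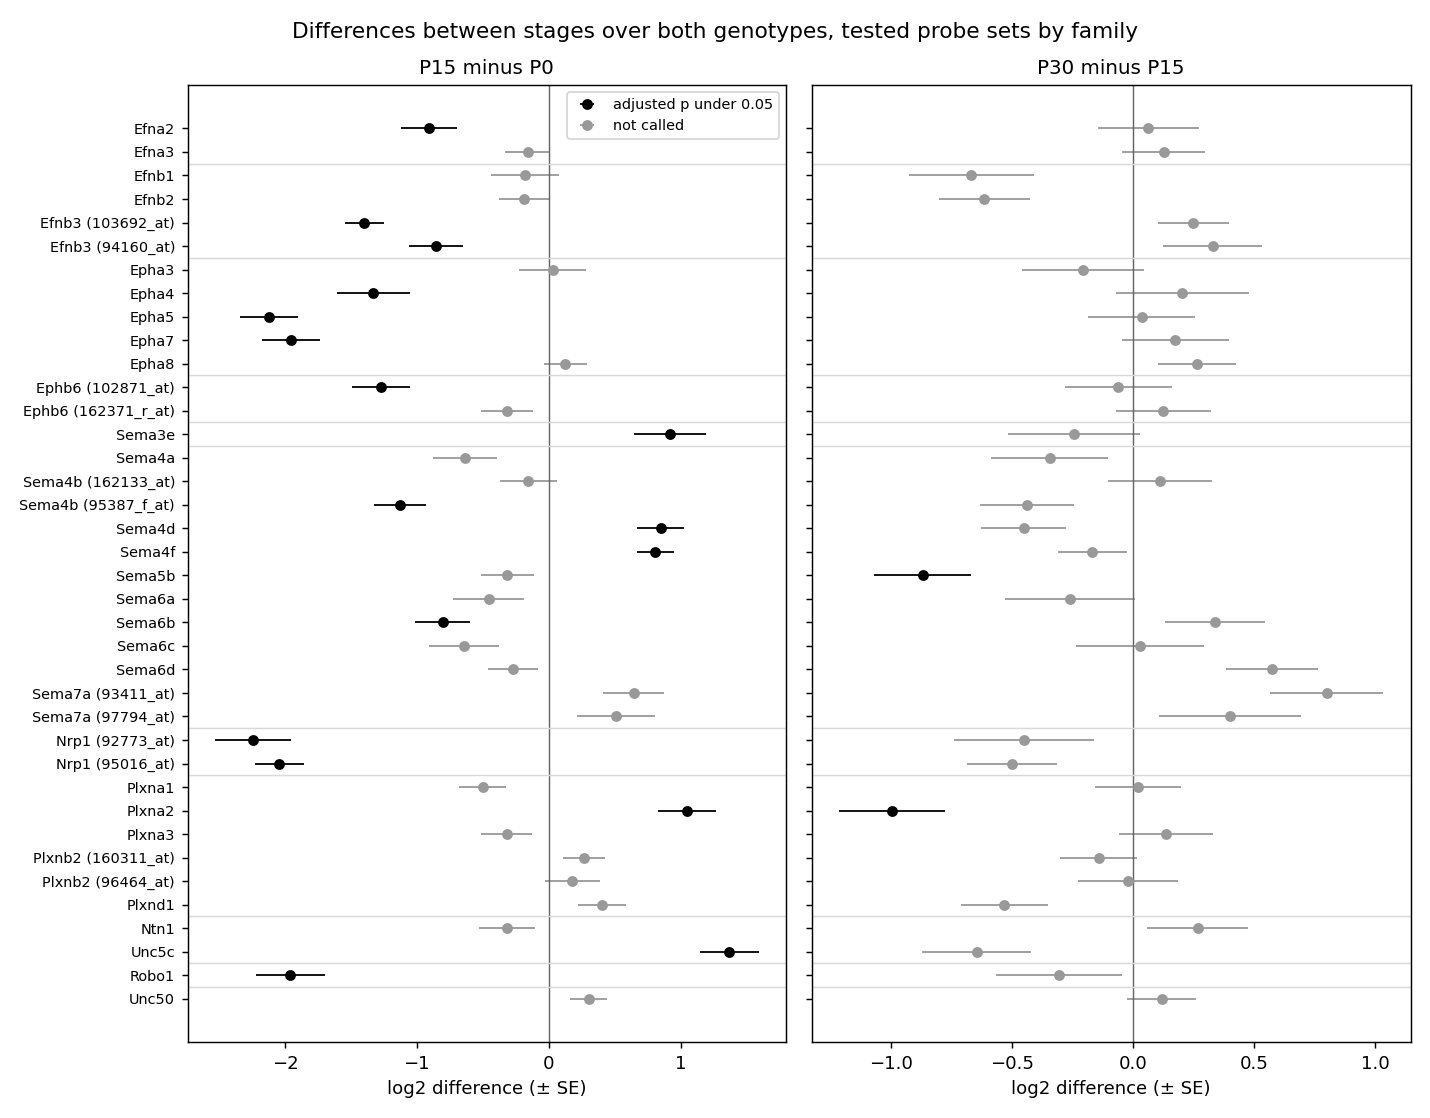
Log2 difference of each of the 38 tested probe sets from P0 to P15 (left) and from P15 to P30 (right), over both genotypes, grouped by family. Points are limma estimates, bars are ± SE, and black marks an adjusted p under 0.05. The left panel holds 12 black points below 0 and 5 above it, and the right panel holds 2, both below 0.

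From P15 to P30, Plxna2 and Sema5b fell. Calls were made for 2 of 38 probe sets (5.26%, against 4.74% of all tested). Both were lower (background 3.13%), and 0 were higher (background 1.61%). The median difference was -6.58e-05 over the guidance probe sets and 0.06 over all tested, and 10 of 38 (26.3%) had an unadjusted p under 0.05, against 1612 of 7453 (21.6%). Both shares lay near those of all probe sets. This comparison shares the P15 pools with the first one, so a P15 value that was high by chance counts in both.

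Plxna2 fell back from its P15 level to 51.4 and 47.5 in euploid and 65.2 and 62.9 in Ts1Cje at P30. The P30 arrays all lay below the P15 arrays and overlapped those of P0 (1.99-fold lower, adjusted p = 0.0419). Its call ended in 6 of 15 other settings, among them the fits without the euploid P15 pool (adjusted p = 0.056), the euploid P30 pool (-0.74, adjusted p = 0.244) and the Ts1Cje P15 pool (adjusted p = 0.0765).

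Sema5b, a transmembrane semaphorin with thrombospondin repeats, read 68.6 and 73.5 in euploid and 67.6 and 74.6 in Ts1Cje at P0. It read 46.4 and 52.8 against 55.6 and 73.2 at P15, and 31.3 and 30.5 against 18.9 and 37.0 at P30. The P30 arrays lay below the P15 arrays (-0.87 ± 0.20, adjusted p = 0.0482), but the call was lost in 9 of 15 other settings. Without the Ts1Cje P30 pool, the one with the highest actin ratio, the value was -0.69 (adjusted p = 0.397). It was -0.65 without the Ts1Cje P15 pool (adjusted p = 0.155), and the call also ended without the euploid P30 pool (adjusted p = 0.0608).

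Some genes came near a call. Sema7a read 306.1 and 273.6 in euploid at P15 and 726.8 and 625.8 at P30, and in Ts1Cje 476.6 and 465.5 and then 630.5 and 609.1. Every P30 array was above every P15 array without a call (0.80 ± 0.23, adjusted p = 0.0999). Unc5c gave -0.65 ± 0.23 (adjusted p = 0.147) and Efnb2 -0.61 ± 0.19 (adjusted p = 0.113), again with stages that did not overlap. Of the receptors that fell by P15, Epha5 gave 0.04 ± 0.22, Epha7 0.18 ± 0.22, Robo1 -0.31 ± 0.26 and Nrp1 -0.50 ± 0.19 (adjusted p = 0.17), and 0 of the 4 were called.

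The genes below the filter are part of the picture, since 13 guidance genes had no tested probe set. They were Dcc, Efna1, Efna4, Efna5, Epha2, Epha6, Ephb3, Robo3, Sema3a, Sema3b, Sema3c, Sema3f and Sema5a. All 20 untested probe sets read between 0.2 and 35.4. Ephb3 was the one with a stage mean at or above the filter: it read 18.2 to 35.4 at P0 and 2.9 to 16.8 later. In the fit without a filter it fell by 1.19 ± 0.29 from P0 to P15 (adjusted p = 0.0291). In that fit Sema3f, a secreted repellent, fell by 1.62 ± 0.22 (adjusted p = 0.00256), from 9.8 to 28.0 at P0 to 1.2 to 4.6 later. A second probe set of Epha5 fell by 1.27 ± 0.21 (adjusted p = 0.00604). The second probe sets of Epha4 (-0.22 ± 0.27, adjusted p = 0.632) and Epha7 (-0.57 ± 0.23, adjusted p = 0.143) were not called, unlike their brighter ones. Signals this close to background have no firm level, and Sema3a, the main ligand of Nrp1, stayed between 8.5 and 28.4 with no call.

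Partners of these receptors and the enzymes behind them moved in both directions. Of 18 listed partners and further cues, 8 were tested, and 2 rose and 2 fell from P0 to P15. Among all probe sets tested, 13.6% rose and 14.4% fell. The chemokine Cxcl12 rose (0.70 ± 0.17, adjusted p = 0.0153), as did the receptor phosphatase Ptprd (0.67 ± 0.16, adjusted p = 0.0152). The adhesion molecule Chl1, a partner of Nrp1, fell (-1.35 ± 0.18, adjusted p = 0.00096), as did the receptor phosphatase Ptprs (-0.59 ± 0.16, adjusted p = 0.0271). From P15 to P30, 0 of the 8 were called, against 4.74% of all probe sets tested.

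Of 58 listed intracellular effectors, 34 were tested, and 4 rose and 10 fell from P0 to P15, with a median of -0.11. Over all probe sets tested, 13.6% rose and 14.4% fell, with a median of -0.03. The risers were Kalrn (2.49 ± 0.17, adjusted p = 4.13e-05), Tiam1 (1.88 ± 0.20, adjusted p = 0.000297), Srgap2 (1.32 ± 0.22, adjusted p = 0.00257) and Ablim1 (1.27 ± 0.16, adjusted p = 0.000892). Kalrn and Tiam1 activate Rac, Srgap2 inactivates it, and Ablim1 binds actin. The deepest falls were those of growth cone proteins and a kinase: Dpysl3 (-2.37 ± 0.39, adjusted p = 0.00263), Pak3 (-1.95 ± 0.22, adjusted p = 0.000485), Gap43 (-1.66 ± 0.17, adjusted p = 0.000265) and Crmp1, a mediator of Sema3a signals (adjusted p = 0.000203). From P15 to P30 Tiam1 rose again (0.90 ± 0.20, adjusted p = 0.0405), and Dpysl3, Itsn1, Evl and Fyn fell, by 0.79 to 1.88. In that comparison 1.61% of all probe sets tested rose and 3.13% fell.

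The genotype comparison asked whether guidance genes differ in Ts1Cje cerebellum over the 3 stages. No guidance probe set was called: 0 of 38, against 0.0% of all probe sets tested, by limma with Benjamini-Hochberg adjustment. At an unadjusted p under 0.05 there were 2 of 38 (5.26%), against 217 of 7453 (2.91%). All adjusted p-values were 1, and the median difference was 0.04 over the guidance probe sets and -0.00106 over all. A p that misses the threshold does not show that the genotypes are alike, with SEs of single guidance probe sets from 0.12 to 0.24.

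Sema6a, the granule cell ligand of Plxna2, had the smallest unadjusted p (0.65 ± 0.22, adjusted p = 1). It read 27.4 and 23.9 in euploid and 40.9 and 25.3 in Ts1Cje at P0, 33.5 and 5.6 against 25.0 and 25.8 at P15, and 7.0 and 12.6 against 23.4 and 25.7 at P30. The genotypes overlapped at P0 and P15 and stood apart at P30, at signals near the filter. Efnb1, an ephrin-B, came next (0.52 ± 0.21, adjusted p = 1). It read 26.5 and 31.6 against 57.3 and 56.3 at P0, 32.4 and 38.9 against 35.1 and 35.8 at P15, and 13.3 and 17.5 against 27.6 and 27.1 at P30. Ts1Cje was higher at P0 and P30, and the genotypes overlapped at P15. Efnb1 lies on the X chromosome, and its difference was -0.0025 at P15, the stage whose Ts1Cje pool had Xist signal. The part of sex was not tested, and at that stage sex and genotype cannot be told apart.

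The remaining genes by the naming rule differed by less. By their brightest probe sets, Sema4d (0.23 ± 0.14), Nrp1 (0.23 ± 0.15) and Efnb3 (0.17 ± 0.12) were higher in Ts1Cje on average at each stage. The dimmer probe sets of Nrp1 and Efnb3 changed sign between stages. For Nrp1 the dimmer one was lower in Ts1Cje at P30 (-0.08) and P15 (-0.18), and higher at P0 (0.92). For Efnb3 it was lower at P30 (-0.22), higher at P15 (0.55) and hardly different at P0 (0.0001). Plxna1 (-0.20 ± 0.14) was lower at each stage, by 0.27, 0.19 and 0.14 on the log2 scale. Sema3e (-0.34 ± 0.22), Plxna3 (-0.14 ± 0.16) and Efna3 (-0.10 ± 0.14) changed sign between stages, and for the last 2 the sign of the mean rested on P0, since either P0 pool left out gave 0.04. Plxna3 lies on the X chromosome, and its difference was 0.19 in the stage whose Ts1Cje pool had Xist signal (P15). The part of sex in that value was not tested and cannot be told apart from that of genotype. Robo1, which lies on chromosome 16 outside the trisomic part, gave 0.08 ± 0.21. Among the effectors, Itsn1, a trisomic gene chosen here after its values were seen, was higher in Ts1Cje by 0.43 at P0, 0.35 at P15 and 0.59 at P30, also without a call (adjusted p = 1).

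**Figure D3:**
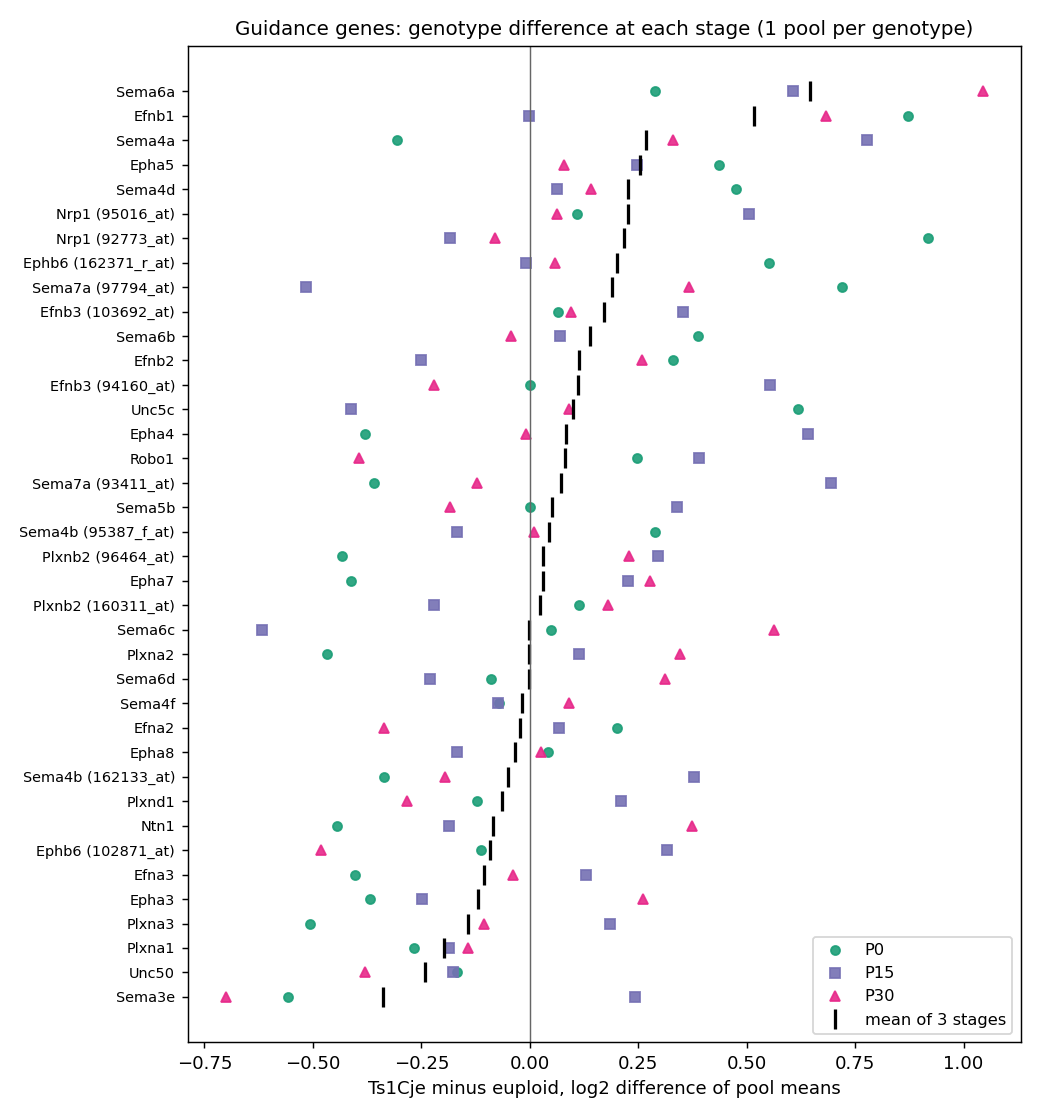
Ts1Cje minus euploid difference of pool means (log2 scale) for the 38 tested probe sets, in order of the mean over stages. Green circles are P0, purple squares P15, pink triangles P30, and black bars the mean of the 3 stages. Sema6a and Efnb1 have the highest means, and Unc50 and Sema3e the lowest.

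Within a stage, 1 pool faced 1 pool, so values are given with no test. A difference was listed where pool means differed at least 1.5-fold and the arrays of the genotypes did not overlap. At P0 this took in 4 of 38 probe sets (10.5%, against 7.41% of all tested), all higher in Ts1Cje. They were Efnb1 (1.83-fold), Unc5c (1.53-fold) and further probe sets of Nrp1 (1.89-fold) and Sema7a (1.65-fold). The brightest probe sets of Nrp1 and Sema7a gave 0.11 and -0.36 on the log2 scale at P0, so those of Sema7a had opposite signs. Marker sums were also higher in the Ts1Cje P0 pool, without overlap, for endothelium (270.2 to 309.9 against 197.3 to 227.7), for meninges and choroid plexus (3623 to 4071 against 2878 to 2973) and for dividing cells (473.1 to 545.6 against 345.3 to 430.8). Higher in the same way were sums for Purkinje cells (739.3 to 843.0 against 582.3 to 614.5) and granule progenitors (122.0 to 136.2 against 113.6 to 117.1). Those of microglia were lower (268.6 to 271.9 against 358.3 to 375.2). So were those of tissue outside the cerebellum (21.4 to 22.0 against 39.7 to 42.9). Within the meninges and choroid plexus list, Ttr was lower in Ts1Cje at P0 (-1.33 on the log2 scale). Ptgds, Igf2, Col1a1, Col1a2 and Dcn were higher. The part of these cell types and tissues in the P0 differences was not tested.

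At P15 it was 4 of 38 (10.5%, against 5.15%). Sema4a, a membrane semaphorin known from immune cells, read 88.2 and 108.7 in euploid and 154.5 and 189.7 in Ts1Cje (1.71-fold higher). By their brighter probe sets, Sema7a was 1.62-fold and Epha4 1.56-fold higher. The dimmer probe set of Sema7a was lower in Ts1Cje, at 30.2 and 29.6 against 42.2 and 47.4 in euploid. Sema6c was lower in Ts1Cje, at 51.6 and 30.8 against 60.2 and 67.7 in euploid. In that Ts1Cje pool the markers of Purkinje cells summed to 5778 to 6272, against 7676 to 7678 in euploid, and those of granule cells were lower as given above. Microglia markers summed to 402.2 to 405.7 there, against 291.4 to 307.3 in euploid, and those of meninges and choroid plexus to 3544 to 4195 against 2765 to 3492. The part of these cell types in the P15 differences was not tested.

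At P30 it was 3 of 38 (7.89%, against 4.41%). Sema6a (2.06-fold) and Efnb1 (1.61-fold) were higher in Ts1Cje, and Sema3e was lower, at 20.3 and 29.3 against 34.7 and 52.2. Each of the 3 was dim. Endothelial markers summed to 280.2 to 307.8 in Ts1Cje and 228.4 to 231.9 in euploid at P30. Within that list, Vwf (0.73), Flt1 (0.52) and Kdr (0.08) were higher on the log2 scale, and Pecam1 (-0.21) and Cdh5 (-0.04) lower. Granule cell markers also summed higher in Ts1Cje (5366 to 5423 against 4947 to 5179). Sums were lower for granule progenitors (41.5 to 49.5 against 55.2 to 60.1) and oligodendrocytes (4148 to 4217 against 4311 to 4620). The part of these markers and of the higher actin ratio of the Ts1Cje P30 pool was not tested. The genotype difference was also tested for a linear change with postnatal day. Calls were 0 of 38 by limma, against 0.0% of all tested, and 0 of 38 had an unadjusted p under 0.05 against 193 of 7453. The smallest p-values were those of Ntn1 (0.82 ± 0.38 from P0 to P30), Plxna2 (0.81 ± 0.40) and Epha7 (0.69 ± 0.44), each with an adjusted p of 1. Ntn1 read 143.8 and 199.8 in euploid against 103.9 and 146.2 in Ts1Cje at P0, and 113.0 and 131.9 against 146.0 and 174.2 at P30. The order of its pool means was thus opposite at the first and last stage.

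Unc50, caught by its name, is a membrane protein of the Golgi whose worm relative is needed to assemble acetylcholine receptors. It read 347.4 and 374.5 in euploid and 318.4 and 322.3 in Ts1Cje at P0, 439.4 and 454.8 against 383.9 and 405.7 at P15, and 513.9 and 528.3 against 392.4 and 406.7 at P30. Ts1Cje arrays lay below euploid arrays at every stage, with no call (-0.24 ± 0.12, adjusted p = 1). Its stage differences were not called (0.30 ± 0.14 from P0 to P15, adjusted p = 0.15), and leaving Unc50 out changed no count of called probe sets.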

How the data were processed

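Each deposited value is a linear intensity of 1 probe set on 1 array, which the authors made with MAS5, per the submitters' processing notes. Its settings are not recorded in the labels. The arrays share a trimmed mean (100.05 to 100.06), so they had been scaled alike. Signals were transformed to log2 after adding 4.6, the 20th percentile of all values. The 66 control probe sets and those with a mean under 20.12 (the 40th percentile) were left out, which left 7453. Symbols came from the platform annotation: 10855 probe sets have 1, 396 several and 1237 none.

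The log2 values of the 2 arrays of a pool were averaged, which made the pool the replicate. The linear models used limma 3.58.1 (lmFit, eBayes with a trend) under R 4.3.3. Genotype and stage entered 1 model (2 residual degrees of freedom, fitted prior 6.39). Another added genotype by day, linear in day (1 residual, prior 9.51). P-values are two-sided and adjusted by Benjamini-Hochberg over 7453 probe sets. Their error is the departure of these pools from the fitted model. In the first model a stage change that differs between genotypes therefore counts as error. Spread between replicate pools of a group was not measured. The number of pools, 1 per genotype and stage, limits the precision. The procedure was tested on simulated data. Figures used matplotlib 3.10.9.

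A gene counts by its brightest tested probe set. Every called gene is named. For genotype the 5 higher and 5 lower genes with the smallest p are named, for genotype by day 3, and from each further list up to 4 called rises and falls. The members, gene lists and tests were chosen with earlier results of these data known. Alternatives were other pseudocounts (1 and 32), filters, quantile normalization, no trend, each pool or hybridisation left out, and a hybridisation block. Detection calls were not analysed here.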

Additional observations from a re-analysis of the deposited data

Results flagged for a closer look

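In 14 of the 38 tested probe sets, Unc50 counted among the 38 (36.8%, against 26.7% of all tested) the arrays of Ts1Cje lay wholly on one side of euploid at 1 stage and on the other side at another, or the order of stages was opposite in the genotypes. The first kind was seen in 34.2% of these 38 and 24.2% of all, the second in 13.2% and 9.86%. Each group is 1 pool, so these differences of differences were not tested themselves. The test of genotype by day gave an adjusted p of 1 for all of them. It fits a change that is linear in day, so it says little about a difference that reverses at P15 and returns by P30. Values below are on the log2 scale.

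The widest reversal of the genotype difference from P0 to P15 among brightest probe sets was that of Sema7a, from -0.36 to 0.69 (a change of 1.05). Unc5c went from 0.62 to -0.41 (a change of -1.03), and Epha4 from -0.38 to 0.64 (a change of 1.02). Epha7 changed by 0.64, from -0.41 to 0.23. Plxna2 changed by 0.58 to P15 and by 0.81 to P30, from -0.47 at P0. Sema4b changed by 0.72, both as genotype difference (-0.34 at P0, 0.38 at P15) and as stage difference between the genotypes. The dimmer probe set of Sema7a ran against the brighter one, with -1.24 from P0 to P15 (also as stage difference) and 0.88 from P15 to P30.

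Robo1 was higher in Ts1Cje at P0 (0.25) and P15 (0.39) and lower at P30 (-0.40), changes of -0.64 and -0.79. Epha3 changed by 0.63 from P0 to P30. Plxnb2 had a dimmer probe set with changes of 0.73 to P15 (also as stage difference) and 0.66 to P30 from P0, and a brighter one with 0.40 from P15 to P30 in both readings. Plxnd1 changed by -0.49 and the dimmer probe set of Efnb3 by -0.78 from P15 to P30. Efnb1 went up by 0.26 from P0 to P15 in euploid and down by 0.62 in Ts1Cje, a difference of -0.87.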

How the results depend on the processing

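From P0 to P15 the count of called guidance probe sets was 17 and ranged from 14 to 20 with 1 pool left out and from 13 to 16 with 1 hybridisation of each pool, and no other setting moved it by over 1.5 times. From P15 to P30 it was 2 and came to 1 with a pseudocount of 32, 0 with no signal filter, 1 with a filter at the median, 0 without the trend and 0 to 3 with a pool or hybridisation left out. Over all probe sets that count was 353, and 199 with no filter, 183 without the trend, 746 and 98 with the first and the second hybridisations alone, and 141 to 508 with 1 pool left out. Same-numbered hybridisations of different pools deviated together with r from -0.12 to 0.35, so their numbers do not pair the samples. With the hybridisation number as a replicate block and pools as random blocks (within-pool correlation 0.153), guidance calls were 20 and 5, and calls over all probe sets from P15 to P30 were 898.

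Guidance calls for genotype were 0 in all settings run, while over all probe sets 6 were called without either P30 pool or with the block and 1 without either P0 pool. For genotype by day, 9 were called over all probe sets with the second hybridisations alone and 0 guidance probe sets in any setting run; with a pool left out that model could not be fitted. Differences of Plxna3 and Efna3 between genotypes turned to 0.0399 and 0.0448 without either P0 pool (ranges over pools left out -0.306 to 0.0399 and -0.222 to 0.0448). Within stages, a 2-fold minimum left 0 probe sets at P0 and P15 and 1 at P30, and a pseudocount of 32 left 1, 2 and 0 by stage. Of the named genes' values under other settings, 174 kept their call from P0 to P15 and 18 lost it, and from P15 to P30 15 kept it and 15 lost it. The cause was not tested, beyond fewer probe sets, pools or arrays in a setting. Low signal over background limits Sema3e, Sema6a, Epha3 and Efnb1.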
